A study of Homo sapiens with 3 samples.

Results

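Integrin and laminin genes were followed in the established bladder cancer cell line UM-UC-3 (human) after lentiviral delivery of short hairpin RNAs. The genes were chosen by symbol: ITGA or ITGB with a number, the lettered alpha chains ITGAD, ITGAE, ITGAL, ITGAM, ITGAV and ITGAX, and LAMA, LAMB or LAMC with a number. The deposited table lists 50867 genes, and 36 of those chosen in this way are described, namely 17 integrin alpha, 8 integrin beta and 11 laminin chains. The rule reads symbols only, but the genes were chosen with earlier results of these data known. ITGA2B, whose symbol ends in a letter, lies outside the rule and is mentioned only as a partner of ITGB3. Polyadenylated RNA was sequenced in 3 libraries. The group shControl is 1 library of cells with a scramble hairpin. The group shBLACAT2 is 2 libraries, 1 per hairpin against the long non-coding RNA BLACAT2, called shRNA 1 and shRNA 2 here. Cells of both groups were selected with puromycin for 2 weeks to give stable lines, and each hairpin has 1 library.

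Integrins are cell surface receptors made of 1 alpha and 1 beta chain. They bind matrix proteins or proteins of other cells and tie them, through talin and kindlin adaptors, to the actin skeleton. Laminins are cross-shaped trimers of an alpha, a beta and a gamma chain and are the main glycoproteins of basement membranes. A trimer is named by its chains, so laminin α5β1γ1 is made of LAMA5, LAMB1 and LAMC1. Epithelia, the urothelium included, anchor to laminins through the pair of ITGA6 and ITGB4 in hemidesmosomes and through ITGA3 with ITGB1.

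The target RNA, listed as LINC00958 (ENSG00000251381; hg38, chromosome 11, 12961842 to 12989548), had 938 counts in the control library, 816 with shRNA 1 and 1062 with shRNA 2. After scaling, its ratio to the control was 0.735 with shRNA 1 (95% counting interval 0.668 to 0.808) and 0.996 with shRNA 2 (0.911 to 1.09). The target was therefore lower than the control, beyond counting error, in the library labelled shRNA 1 only, and not lower in the library labelled shRNA 2. Every direction below is that of a labelled library and not of a depletion measured with both hairpins. Library totals lay between 16216947 and 17670199 counts. Of the leukocyte markers CD3D, CD68 and TYROBP, and of the platelet markers PF4, PPBP and GP9, no read was counted in any library, whereas the epithelial keratins KRT7 and KRT8 had between 9813 and 20236 counts. The 8 epithelial markers summed to 2724, 2895 and 2054 CPM and the 6 endothelial markers to 6.59, 4.06 and 8.17, in the order control, shRNA 1, shRNA 2, which is the order of all bare triplets of values below. The 14 leukocyte markers summed to 229, 144 and 162 CPM and the 5 platelet markers to 2.9, 2.89 and 4.23. Among them CD74 had 1955, 2308 and 2242 counts, CSF1R 1496, 263 and 518, and the platelet marker GP1BA 10, 12 and 16.

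Of the 36 genes, 29 reached a mean of at least 1 CPM, a read count scaled to a fixed library total, over the 3 libraries and are called measured. They comprised 12 integrin alpha, 7 integrin beta and 10 laminin chains. A log2 fold is given for each hairpin library over the same control library, from CPM scaled by trimmed means with a prior count of 2. Both folds of a gene share that control, so the pair of values is no repeat of the comparison. A gene was called by size when it was at least 2-fold away from the control in the same direction with both hairpins. By that rule 8 of the 29 measured genes (27.6%) were lower, against 4.5% of all 15132 measured genes. These were ITGA4, ITGA5, ITGA11, ITGAV, ITGB1, ITGB3, ITGB6 and LAMB1. Of them ITGB3 reached 1 CPM in the control library only, so it was measured through the library in which it was high. In the other direction 3 (10.3%) were higher, against 5.29% of all measured genes, and these were ITGB2, ITGB8 and LAMA5.

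No integrin or laminin gene passed edgeR's quasi-likelihood test of both hairpin libraries against the control after adjustment over all genes, and 0.0397% of all measured genes (6) did. Unadjusted p was below 0.05 for 10 of the 29 (34.5%), against 10.2% of all measured genes. DESeq2 called 7 of all 29 (24.1%), of which it gave ITGA9 no adjusted p. Of the 14838 genes to which it gave an adjusted p, it called 3.56%. With limma none of the 29 and none of all genes was called. The edgeR test has 1 residual degree of freedom, which is the difference between the hairpins, and it takes the single control to be as variable as they are. For 9 of the 11 genes called by size the smaller of the hairpin folds exceeded the difference between the hairpins, as it did for 1359 of the 1481 genes called by size in the whole table. The exceptions were ITGA4 and LAMB1.

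Taken by family, the median log2 fold of the 19 measured integrins was -0.50 with shRNA 1 and -0.69 with shRNA 2. For the 10 measured laminins it was -0.62 and 0.21, and for all 15132 genes 0.01 and 0.04. Single integrins ranged from -5.08 to 3.30 with shRNA 1 and from -4.27 to 3.62 with shRNA 2, so the medians cover genes that lay on both sides of the control. Reads of the 36 genes made up 1.09% of the control library (exact 95% binomial interval 1.09 to 1.1), 0.628% with shRNA 1 (0.624 to 0.631) and 0.803% with shRNA 2 (0.799 to 0.807). These intervals, and all counting intervals below, cover counting error only.

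**Figure D1:**
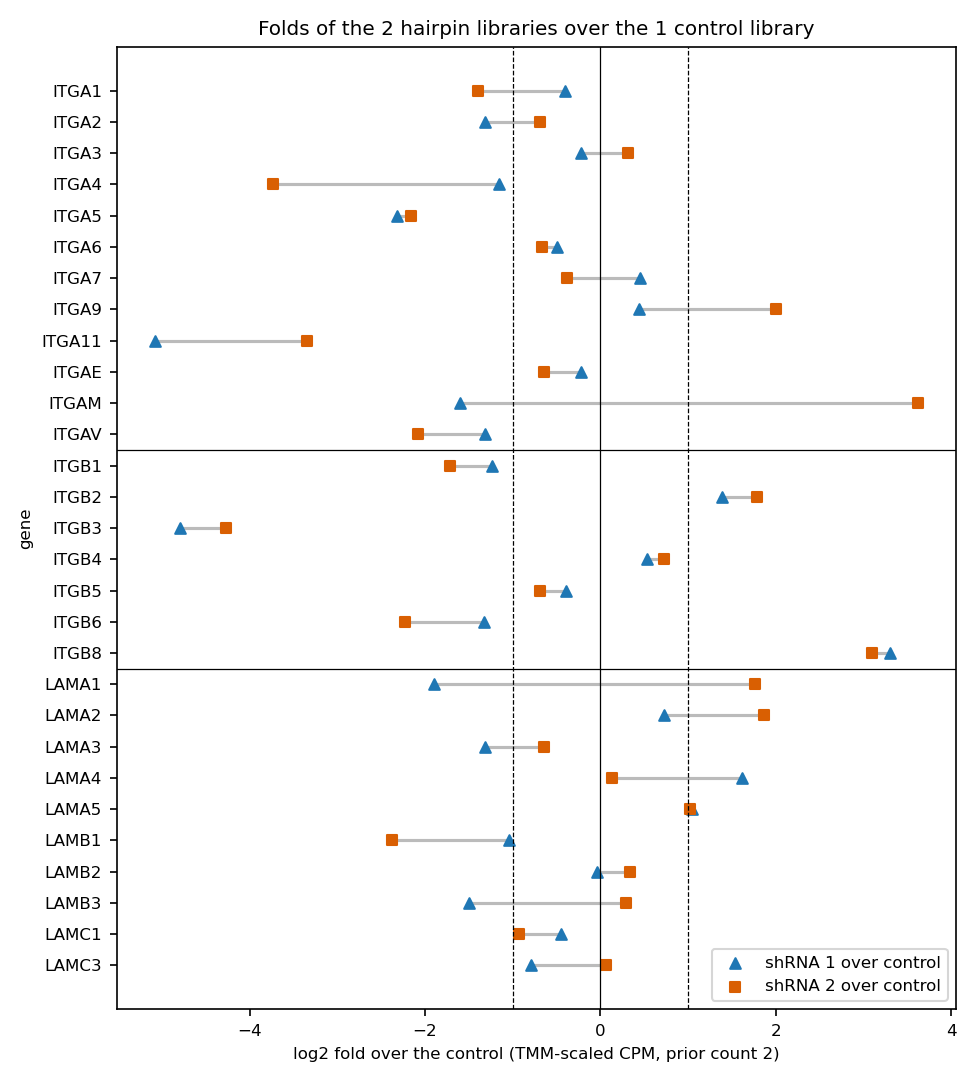
Log2 fold over the control library of each of the 29 measured integrin and laminin genes (horizontal axis, CPM scaled by trimmed means, prior count 2), 1 point per gene and hairpin library. ITGA11 and ITGB3 lie farthest to the left with shRNA 1, and ITGB3 and ITGA4 with shRNA 2, ITGB8 lies at 3.30 and 3.10, and the points of ITGAM and LAMA1 fall on opposite sides of 0.

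The start-site windows of 4 genes are printed here: ITGA5, LAMA3 and LAMB3, which hold a match to the AP-1 motif, and ITGB8, which was higher with both hairpins and holds none. They were chosen after the values were seen. AP-1 is a family of dimeric transcription factors, made of Fos and Jun proteins, whose binding motif is TGANTCA. Windows run from 250 bases before to 50 bases after a start site, come from RefSeq on GRCh38.p14, and are written 5′ to 3′ on the strand of the gene. Capitals mark the 7 letters of a match on either strand.
ITGA5, chr12:54419217-54419516, minus strand: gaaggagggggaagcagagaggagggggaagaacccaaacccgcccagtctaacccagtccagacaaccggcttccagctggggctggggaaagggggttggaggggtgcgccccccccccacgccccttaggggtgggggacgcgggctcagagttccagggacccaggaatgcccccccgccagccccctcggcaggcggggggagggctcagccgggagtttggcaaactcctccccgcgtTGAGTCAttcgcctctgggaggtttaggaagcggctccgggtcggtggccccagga
ITGB8, chr7:20330650-20330949, plus strand: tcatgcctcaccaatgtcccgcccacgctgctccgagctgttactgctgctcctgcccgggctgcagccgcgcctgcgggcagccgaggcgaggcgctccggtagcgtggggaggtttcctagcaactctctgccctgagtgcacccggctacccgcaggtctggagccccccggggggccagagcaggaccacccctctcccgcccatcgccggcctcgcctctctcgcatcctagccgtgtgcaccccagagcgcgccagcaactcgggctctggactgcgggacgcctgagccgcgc
LAMA3, chr18:23872770-23873069, plus strand: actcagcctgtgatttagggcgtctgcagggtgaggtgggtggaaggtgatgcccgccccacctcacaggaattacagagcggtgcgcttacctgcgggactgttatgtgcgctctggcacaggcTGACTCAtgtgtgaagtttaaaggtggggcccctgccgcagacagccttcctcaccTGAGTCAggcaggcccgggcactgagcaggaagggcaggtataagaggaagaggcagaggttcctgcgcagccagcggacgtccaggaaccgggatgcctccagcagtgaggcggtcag
LAMB3, chr1:209651325-209651624, minus strand: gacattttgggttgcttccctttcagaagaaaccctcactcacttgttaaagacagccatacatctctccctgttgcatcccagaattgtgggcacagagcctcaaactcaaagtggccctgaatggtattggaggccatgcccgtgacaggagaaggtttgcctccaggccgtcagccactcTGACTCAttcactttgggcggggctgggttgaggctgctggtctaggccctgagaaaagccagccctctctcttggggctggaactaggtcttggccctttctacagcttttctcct
ITGA5 holds TGAGTCA with its first letter 6 bases before the start site. The LAMA3 window surrounds a start site inside the annotated span of the gene (chromosome 18, 23689443 to 23955066), and holds TGACTCA 125 bases and TGAGTCA 69 bases before it. LAMB3 holds TGACTCA 67 bases before the start site shown, which is 1 of 3 RefSeq windows for the gene. ITGB8 holds none.

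RefSeq windows were matched for 25 of the 36 genes, 32 windows in all. The AP-1 motif was present in 3 of these 32 (9.38%), against 7.71% of all 35116 windows of the same length. Among the genes called lower by size only ITGA5 held a match. The windows of ITGA4, ITGA11, ITGAV, ITGB1, ITGB6 and LAMB1 held none, and ITGB3 had no window. The printed windows therefore do not relate the motif to direction. GGAATG, the motif of TEAD factors, was present in 4 windows (12.5%, against 14%), those of ITGA5, ITGA10, ITGB1 and LAMA2. GGGCGG, a GC box bound by SP1, was present in 19 (59.4%, against 45%), and CACCTG, an E-box bound by ZEB factors, in 8 (25%, against 20.6%). AACNGGTT, the motif of Grainyhead-like factors, was in none of the 32 windows, against 1.73%. Each motif was searched on both strands, and no motif was read as a bound site.

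The ITGAV chain and its beta partners came first among the receptors. ITGAV pairs with ITGB1, ITGB3, ITGB5, ITGB6 or ITGB8 into receptors for the RGD motif of fibronectin, vitronectin and the latency peptide of TGF-beta. ITGAV (ENSG00000138448; chromosome 2, 186590065 to 186680901) had 9929 counts in the control library, 4737 with shRNA 1 and 2661 with shRNA 2. Both hairpin libraries were below the control, by 2.48-fold (ratio 0.403, 0.389 to 0.417) and 4.24-fold (ratio 0.236, 0.226 to 0.246). Averaged over hairpins, the log2 fold was -1.70 ± 0.55 (SD, n = 2), with an edgeR adjusted p of 0.267 and a DESeq2 adjusted p of 0.0182.

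ITGB3 (ENSG00000259207; chromosome 17, 47253846 to 47311816), the beta chain of the vitronectin receptor, had 236 counts in the control library, 8 with shRNA 1 and 12 with shRNA 2. It was 34.9-fold lower with shRNA 1 (ratio 0.0286, 0.0122 to 0.0574) and 22.4-fold lower with shRNA 2 (ratio 0.0447, 0.0228 to 0.0796). Averaged over hairpins, the log2 fold was -4.53 ± 0.37 (SD, n = 2). This gene and ITGB8 had the smallest edgeR adjusted p of the 29, 0.0766, which missed the threshold, and DESeq2 gave ITGB3 6.61e-06. Only the control library held more than 1 CPM of ITGB3, so the gene entered the measured set through the library in which it was high.

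ITGB6 (ENSG00000115221; chromosome 2, 160099666 to 160271888) is an epithelial chain whose pair with ITGAV binds and activates latent TGF-beta. It had 7476 counts in the control library, 3528 with shRNA 1 and 1816 with shRNA 2. The libraries kept the order of ITGAV, with the control highest and shRNA 2 lowest. The folds were 2.51-fold and 4.68-fold lower (mean log2 -1.78 ± 0.64, SD, n = 2), with an edgeR adjusted p of 0.271 and a DESeq2 adjusted p of 0.0185.

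ITGB8 (ENSG00000105855; chromosome 7, 20330702 to 20415754), the other beta chain best known for binding latent TGF-beta, went the opposite way. It had 202 counts in the control library, 2371 with shRNA 1 and 1990 with shRNA 2, and both hairpin libraries stood far above the control. The ratio was 9.92 with shRNA 1 (8.59 to 11.5) and 8.66 with shRNA 2 (7.49 to 10.1), a mean log2 fold of 3.20 ± 0.14 (SD, n = 2). The edgeR adjusted p was 0.0766 and the DESeq2 adjusted p 2.27e-09. An antisense gene opposite ITGB8, CTA-293F17.1, had 10, 29 and 42 counts. ITGB5, a broadly expressed vitronectin-binding chain, had 1680, 1520 and 1185 counts and log2 folds of -0.39 and -0.69, inside the size threshold with either hairpin.

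Levels of different genes are compared as FPKM, which scales reads by gene length and library total, as deposited. FPKM is not scaled by trimmed means, so its values set between libraries differ in scaling from the log2 folds. Summed over ITGB3, ITGB5, ITGB6 and ITGB8, the beta partners of ITGAV other than ITGB1 had 49.2 FPKM in the control library, 32.1 with shRNA 1 and 23.5 with shRNA 2. ITGB6 made up 70.2% of that sum in the control library and 47.1% and 36.1% with the hairpins. ITGB8 made up 1.41%, 23.5% and 29.4% in the same order, and ITGB3 5.82%, 0.281% and 0.627%. ITGB6 was thus 49.8 times as high as ITGB8 in the control library, and 2 times and 1.23 times as high in the hairpin libraries. ITGB5 kept between 7.94 and 11.1 FPKM while its share went from 22.6% to 29.1% and 33.8%.

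**Figure D2:**
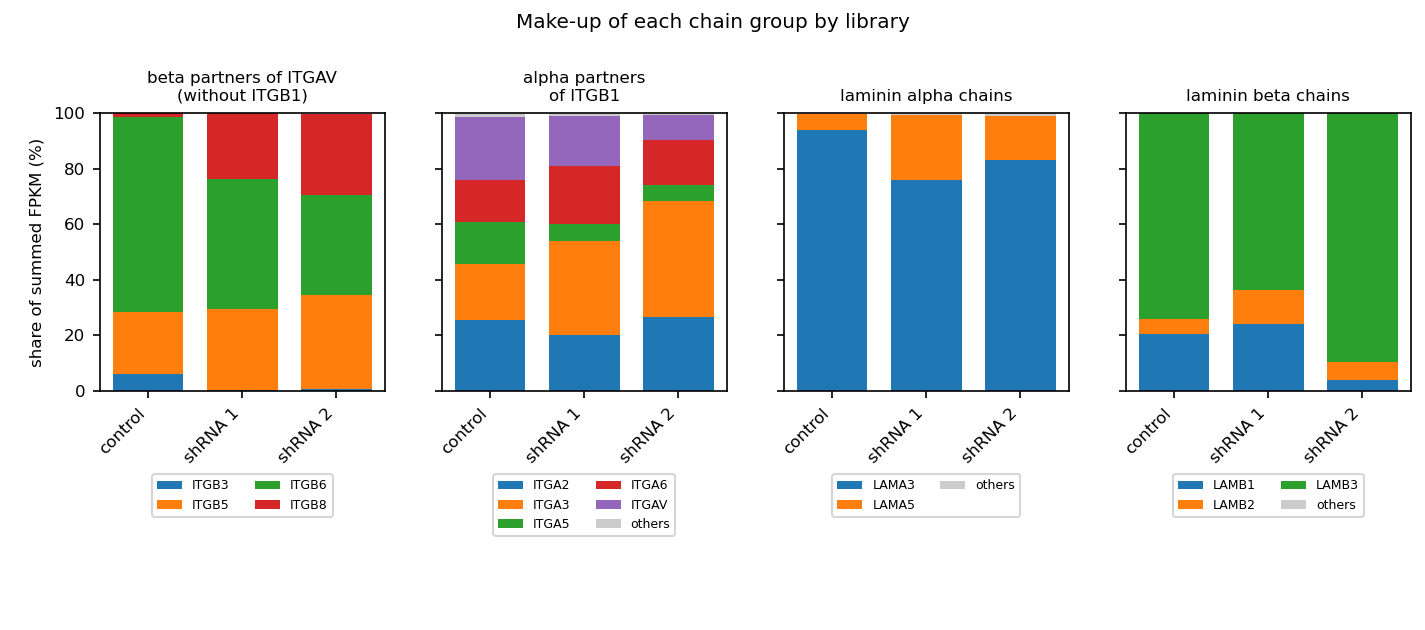
Share of the summed FPKM (vertical axis, %) that each chain contributed within its chain group, 1 stacked bar per library and 1 panel per group. Among the beta partners of ITGAV, ITGB6 went from 70.2% in the control to 47.1% and 36.1% and ITGB8 from 1.41% to 23.5% and 29.4%, and among laminin alpha chains LAMA5 went from 5.58% to 23.3% and 15.6%.

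ITGA5 and ITGB1 form the main fibronectin receptor. ITGA5 (ENSG00000161638; chromosome 12, 54395261 to 54419460, the gene whose start-site window is printed above) had 6260 counts in the control library, 1482 with shRNA 1 and 1588 with shRNA 2. The hairpin libraries lay close together and well below the control. The gene was 5-fold lower with shRNA 1 (ratio 0.2, 0.189 to 0.212) and 4.48-fold lower with shRNA 2 (ratio 0.223, 0.211 to 0.236), a mean log2 fold of -2.24 ± 0.11 (SD, n = 2). The edgeR adjusted p was 0.0916 and the DESeq2 adjusted p 2.06e-05.

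ITGB1 (ENSG00000150093; chromosome 10, 32900319 to 33005792), the common beta chain shared by most matrix receptors, had 39642 counts in the control library, 19796 with shRNA 1 and 13720 with shRNA 2. It was 2.37-fold lower with shRNA 1 (ratio 0.422, 0.415 to 0.429) and 3.29-fold lower with shRNA 2 (ratio 0.304, 0.299 to 0.31). Averaged over hairpins, the log2 fold was -1.48 ± 0.33 (SD, n = 2), with an edgeR adjusted p of 0.323 and a DESeq2 adjusted p of 0.0257. The gene remained the highest integrin in every library, at 227, 105 and 79.6 FPKM. Its pseudogene ITGB1P1 was listed with 405, 195 and 130 counts, and reads shared between the copies cannot be assigned with certainty.

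The RGD-binding alpha chains ITGA5, ITGA8 and ITGAV summed to 74.5 FPKM in the control library, 26.4 with shRNA 1 and 19.8 with shRNA 2. ITGA4, whose pair with ITGB1 binds fibronectin and VCAM1, was low throughout, with 57, 29 and 3 counts. Its ratio to the control was 0.43 with shRNA 1 (0.265 to 0.684) and 0.0463 with shRNA 2 (0.00927 to 0.142), so the hairpins differed from each other by more than the smaller of their differences from the control. ITGA9, a receptor chain for tenascin C, had 7, 12 and 38 counts, and only the library labelled shRNA 2 held more than 1 CPM. ITGA9-AS1, on the opposite strand, had 8, 48 and 66 counts. ITGA8 had 0, 1 and 0 counts.

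Among the collagen-binding chains, which all pair with ITGB1, ITGA11 stood apart. ITGA11 (ENSG00000137809; chromosome 15, 68296533 to 68432162), a fibrillar collagen receptor of mesenchymal cells, had 259 counts in the control library, 7 with shRNA 1 and 27 with shRNA 2. It was 43.8-fold lower with shRNA 1 (ratio 0.0228, 0.00909 to 0.0477) and 10.9-fold lower with shRNA 2 (ratio 0.0917, 0.0593 to 0.137). The hairpin libraries differed from each other by a ratio of 4.01 (1.71 to 10.9), and both lay below the control. Averaged over hairpins, the log2 fold was -4.21 ± 1.22 (SD, n = 2), with an edgeR adjusted p of 0.156 and a DESeq2 adjusted p of 0.000419.

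ITGA2, the epithelial collagen I receptor chain, was the main collagen-binding alpha chain by level. It had 7452, 3550 and 5233 counts, or 50.1, 22.2 and 35.7 FPKM. The log2 folds were -1.31 and -0.69, so the size threshold was passed with shRNA 1 only, and the edgeR adjusted p was 0.513. ITGA1, a receptor for collagen IV, had 212, 189 and 90 counts and log2 folds of -0.40 and -1.40, past the threshold with shRNA 2 only. PELO, which overlaps ITGA1 on the same strand, had 803, 853 and 942 counts. ITGA10, a cartilage collagen receptor chain, had 9, 10 and 9 counts and was not measured. The collagen-binding alpha chains summed to 52, 22.7 and 36.1 FPKM in the order control, shRNA 1, shRNA 2.

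Some markers of fibroblasts and smooth muscle lay on the same side of the control as ITGA11, ITGA5 and ITGB3. Of 9 such markers 5 were measured, and 3 of them (COL1A1, PDGFRB and FAP) met the size rule on the lower side. The other measured markers, of smooth muscle, were ACTA2, with 38, 38 and 107 counts (log2 folds -0.23 and 1.27), and MYH11, with 26, 20 and 28 (-0.57 and -0.07). The list summed to 370 CPM in the control library, 22.9 with shRNA 1 and 20.4 with shRNA 2, and COL1A1 gave 5253 of its 5611 counts in the control. The unmeasured markers were COL1A2, with 16, 0 and 1 counts, COL3A1, with 20, 0 and 1, DCN and LUM. DCN, a defining fibroblast transcript, had 2, 2 and 1 counts, and LUM 2, 0 and 0. The part of this list in the integrin values was not tested. In bulk RNA, fewer cells of a type and less RNA per cell cannot be told apart.

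The laminin-binding alpha chains stayed closer to the control. ITGA3, which pairs with ITGB1 and binds laminins with LAMA3 or LAMA5, had 10853, 11063 and 15414 counts, with log2 folds of -0.22 and 0.32. ITGA6, which pairs with ITGB1 or ITGB4, had 5255, 4411 and 3791 counts and log2 folds of -0.50 and -0.66. ITGB4, the hemidesmosome chain with a long cytoplasmic tail, had 3729, 6364 and 7042 counts and log2 folds of 0.53 and 0.73. None of these 3 genes reached 2-fold with either hairpin, and their edgeR adjusted p values lay between 0.684 and 0.975. ITGA7, the laminin receptor chain of muscle, had 44, 72 and 38 counts.

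The proportions between receptor classes therefore differed between the libraries. Laminin-binding alpha chains summed to 69.4 FPKM in the control library, 60.9 with shRNA 1 and 78.7 with shRNA 2. These sums follow library totals and not trimmed means, so the higher sum with shRNA 2 was not read as a rise. ITGA3 was 1.32 times as high as ITGA5 in the control library, 5.69 times with shRNA 1 and 7.4 times with shRNA 2. Among the 12 alpha chains that can pair with ITGB1, ITGA3 made up 20.1%, 34% and 42.1% of the summed FPKM, ITGAV 22.7%, 17.9% and 8.97%, and ITGA5 15.2%, 5.97% and 5.7%. ITGB4 stood at 0.0993 of the level of ITGB1 in the control library, and at 0.339 and 0.542 in the hairpin libraries.

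**Figure D3:**
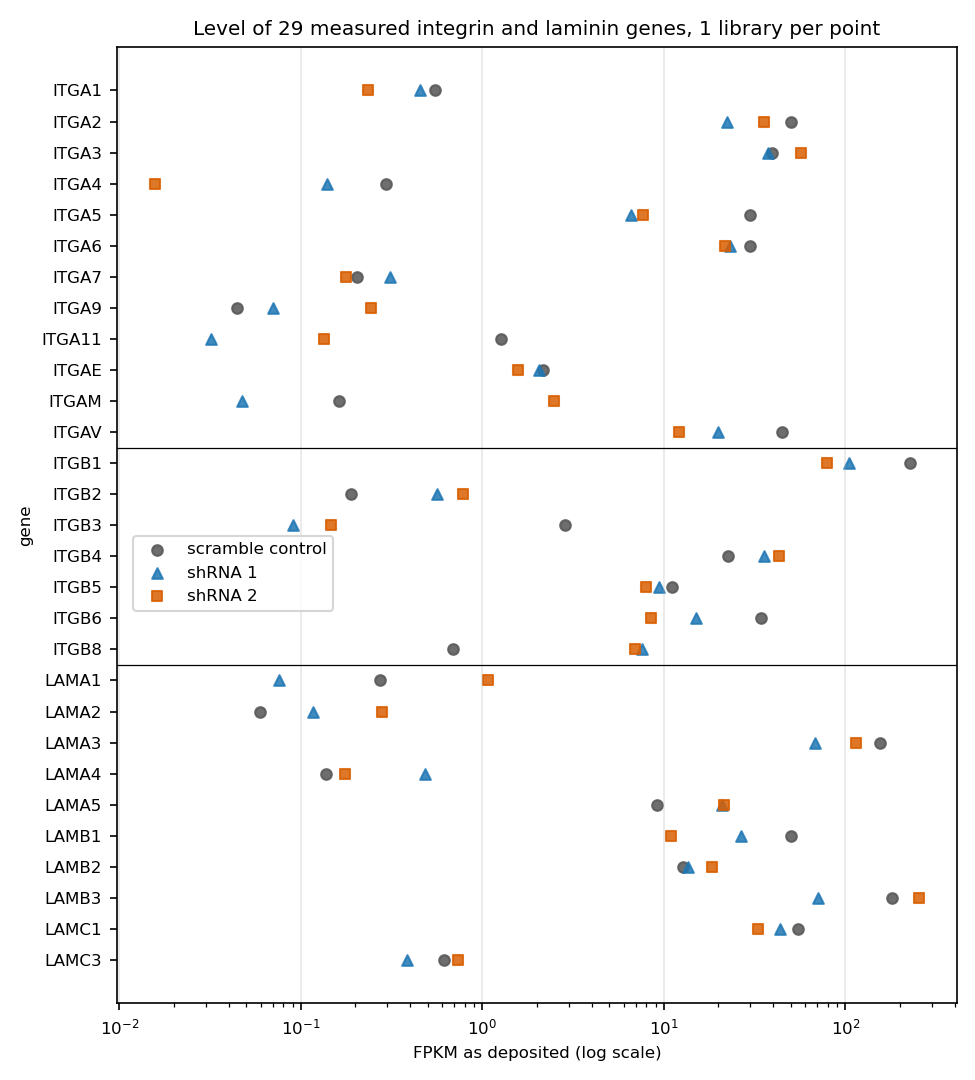
FPKM as deposited (horizontal axis, log scale) of each measured integrin and laminin gene, 1 point per library. ITGB1 at 227 FPKM and LAMB3 at 181 FPKM lead the control library, and ITGA11 and ITGB3 lie above 1 FPKM in the control library only (1.27 and 2.86).

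Integrin pairs were also read by their scarcer chain, in FPKM. This is a description of RNA levels and no measure of assembled receptor. In every pair with ITGB1 the alpha chain was the scarcer in all 3 libraries. For ITGA6 with ITGB4 the scarcer chain was ITGB4 in the control (22.5 FPKM) and ITGA6 in the hairpin libraries (23.2 and 21.7), so the lower value hardly moved while ITGA6 went from 1.32 times the level of ITGB4 to 0.648 and 0.503. For ITGAV with ITGB3, ITGB5, ITGB6 or ITGB8 the beta chain was the scarcer in all 3 libraries. The lower value of ITGAV with ITGB6 went from 34.5 to 15.1 and 8.48 FPKM, and that of ITGAV with ITGB8 from 0.692 to 7.55 and 6.91. ITGB3 was also the scarcer chain beside ITGA2B in the hairpin libraries, at 0.0901 and 0.147 FPKM, where ITGA2B, the platelet partner, had 40 and 57 counts, against 34 in the control.

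Chains that pair on leukocytes were few, and 1 of them separated the hairpins. ITGAM (ENSG00000169896; chromosome 16, 31259990 to 31332892), the alpha chain of the complement receptor of myeloid cells, had 19 counts in the control library, 6 with shRNA 1 and 288 with shRNA 2. The ratio to the control was 0.267 with shRNA 1 (0.0872 to 0.695) and 13.3 with shRNA 2 (8.38 to 22.5), and the libraries labelled shRNA 2 and shRNA 1 differed by a ratio of 50 (22.7 to 137). The mean log2 fold over both hairpins, 1.01 ± 3.69 (SD, n = 2), describes neither library. ITGB2, the beta chain of ITGAM, had 37, 118 and 151 counts and was higher with both hairpins, by ratios of 2.7 (1.85 to 4.01) and 3.59 (2.49 to 5.29), with an edgeR adjusted p of 0.43 and a DESeq2 adjusted p of 0.518. ITGB2-AS1, which lies opposite ITGB2, had 8, 25 and 31 counts, and whether reads were counted by strand is not given in the sources used here.

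The other leukocyte chains, apart from ITGAE, were near 0 counts. ITGAL had 1, 2 and 3 counts, ITGAX 3, 2 and 8, ITGAD 1, 0 and 0, and ITGB7 2, 1 and 6. ITGAE, which marks intraepithelial lymphocytes but overlaps the gene GSG2 on the opposite strand, had 295, 300 and 214 counts and log2 folds of -0.22 and -0.64. Of 14 leukocyte markers 3 were measured, CD14, CD74 and CSF1R, and the list summed to 229, 144 and 162 CPM. The 12 markers other than CD74 and CSF1R summed to 28, 21 and 34 counts. The pan-leukocyte gene PTPRC had 0, 3 and 4 counts and the myeloid factor SPI1 0, 0 and 1, beside the 288 counts of ITGAM with shRNA 2.

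LAMB3 and LAMA3 had the highest levels of the laminin chains described. LAMA3, an epithelial alpha chain, had 42705 counts in the control library, 20223 with shRNA 1 and 31103 with shRNA 2, or 155, 68.1 and 114 FPKM. It was below the control with both, at ratios of 0.4 (0.394 to 0.407) and 0.641 (0.631 to 0.65), and past the size threshold with shRNA 1 only. LAMB3, a beta chain of epithelial anchoring laminin, had 18471, 7734 and 25596 counts, or 181, 70.4 and 254 FPKM. It was below the control with shRNA 1 (ratio 0.354, 0.345 to 0.363) and above it with shRNA 2 (ratio 1.22, 1.2 to 1.24), and the hairpin libraries differed from each other by a ratio of 3.44 (3.36 to 3.53). Both genes carry an AP-1 match in a window printed above. Their edgeR adjusted p values were 0.623 for LAMA3 and 0.932 for LAMB3.

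LAMA5 and LAMB1 were the laminin chains called by size. LAMA5 (ENSG00000130702; chromosome 20, 62307955 to 62367312), the alpha chain of laminins α5β1γ1 and α5β2γ1 in mature epithelial and vascular basement membranes, had 2691 counts in the control library, 6587 with shRNA 1 and 6192 with shRNA 2. The ratios were 2.07 (1.98 to 2.16) and 2.02 (1.93 to 2.12), just past 2-fold, and the mean log2 fold was 1.03 ± 0.02 (SD, n = 2). The edgeR adjusted p was 0.425 and the DESeq2 adjusted p 0.279, and with DESeq2's size factors, or with no expression filter, the gene fell short of the size threshold. ADRM1, which overlaps LAMA5 on the opposite strand, had 1018, 1041 and 1260 counts.

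LAMB1 (ENSG00000091136; chromosome 7, 107923799 to 108003255), the beta chain of laminins α1β1γ1, α2β1γ1, α4β1γ1 and α5β1γ1, had 10040, 5777 and 2193 counts. It was 2.06-fold lower with shRNA 1 (ratio 0.486, 0.471 to 0.502) and 5.21-fold lower with shRNA 2 (ratio 0.192, 0.183 to 0.201), a mean log2 fold of -1.71 ± 0.95 (SD, n = 2). The edgeR adjusted p was 0.456 and the DESeq2 adjusted p 0.0957, and with library totals as the scaling the gene was no longer past 2-fold with both hairpins. DLD, which overlaps LAMB1 on the opposite strand, had 2139, 3521 and 2243 counts. LAMB2, the beta chain that replaces LAMB1 in laminins α1β2γ1, α2β2γ1 and α5β2γ1, had 2855, 3287 and 4098 counts and log2 folds of -0.04 and 0.34. LAMB2 stood at 0.254 of the level of LAMB1 in the control library, 0.509 with shRNA 1 and 1.67 with shRNA 2, in FPKM. LAMC1, the common gamma chain, had 8622, 7444 and 5133 counts and log2 folds of -0.45 and -0.93.

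The remaining laminin chains were low. LAMA1, an alpha chain of early embryonic basement membranes, had 87, 26 and 340 counts, at ratios of 0.253 (0.156 to 0.395) with shRNA 1 and 3.44 (2.71 to 4.4) with shRNA 2. As with ITGAM, the hairpin libraries lay on opposite sides of the control, and they differed by a ratio of 13.6 (9.13 to 21.1). LAMA4, an alpha chain of vascular basement membranes, had 44, 165 and 55 counts, and exceeded 2-fold with shRNA 1 only (ratio 3.17, 2.26 to 4.53). LAMA2, the alpha chain of muscle, had 11, 23 and 51 counts, LAMC3 had 108, 73 and 128, and LAMB4 had 3, 2 and 3 and was not measured.

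Among the alpha and the beta chains the dominant laminin stayed the same while its share differed. LAMA3 made up 94.1% of the summed FPKM of the alpha chains in the control library, 76% with shRNA 1 and 83.3% with shRNA 2. LAMB3 made up 74.3%, 63.6% and 89.6% of the beta chains, and here the hairpin libraries lay on opposite sides of the control. Read by the scarcest chain, laminin α3β1γ1, in which this was LAMB1, went from 49.9 FPKM to 26.7 and 11. For laminin α5β2γ1 the scarcest chain changed, from LAMA5 in the control (9.17) to LAMB2 with shRNA 1 (13.6) and shRNA 2 (18.4). For laminin α5β1γ1 the scarcest chain was LAMA5 in the control (9.17) and with shRNA 1 (20.9), and LAMB1 with shRNA 2 (11).

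**Figure D4:**
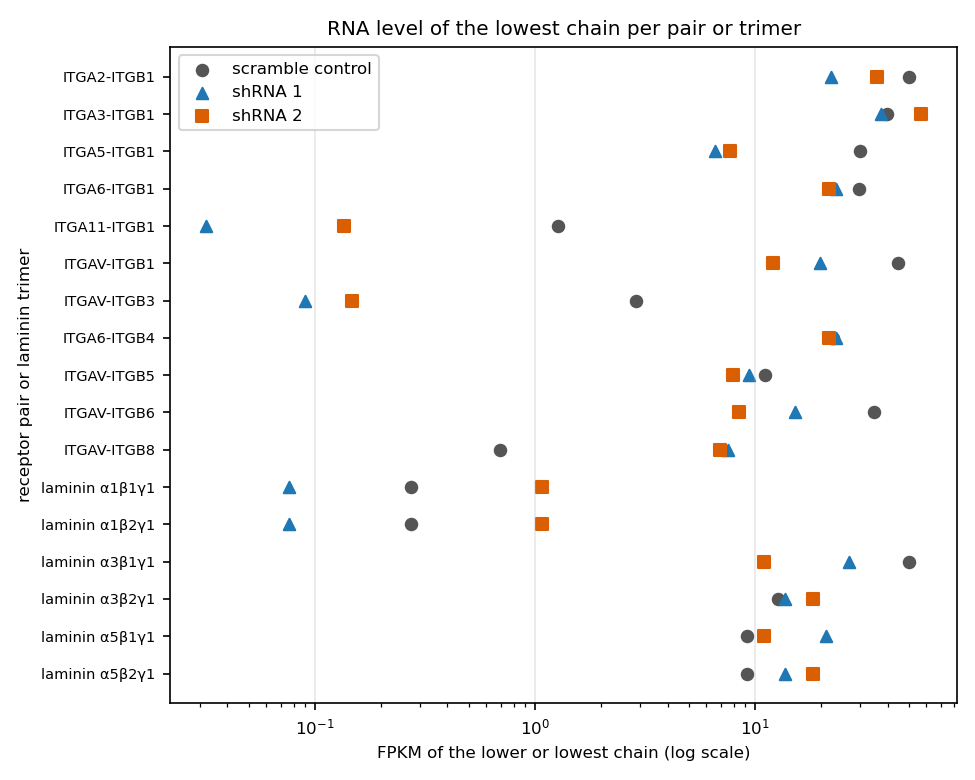
FPKM of the scarcer or scarcest chain (horizontal axis, log scale) of the better measured integrin pairs and laminin trimers, 1 point per library. For laminin α3β1γ1 the points lie at 49.9, 26.7 and 11 FPKM, and the pair of ITGAV with ITGB8 is the one with ITGAV whose hairpin points, 7.55 and 6.91, lie above the control point at 0.692.

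The hairpins were compared with each other as well. Relative to shRNA 1, 3 of the 29 genes (ITGA4, LAMA4 and LAMB1; 10.3%) were at least 2-fold lower with shRNA 2, against 4.48% of all measured genes, and 6 (ITGA9, ITGA11, ITGAM, LAMA1, LAMA2 and LAMB3; 20.7%) were higher, against 8.35%. Taken alone, shRNA 1 put 13 of the 29 genes (44.8%) at least 2-fold below the control, against 7.38% of all measured genes, and 4 (13.8%) above it, against 7.92%. For shRNA 2 the counts were 9 (31%, against 8.76%) below and 7 (24.1%, against 13%) above. The genes below the control by that size with shRNA 1 but not with shRNA 2 were ITGA2, ITGAM, LAMA1, LAMA3 and LAMB3. ITGA1 was below it with shRNA 2 only. Above the control were LAMA4 with shRNA 1 only, and ITGA9, ITGAM, LAMA1 and LAMA2 with shRNA 2 only. With 1 library per hairpin, a difference between hairpins cannot be told apart from a difference between libraries.

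Ligands and partners were read from lists written with earlier results of these data known, so their directions are no independent evidence. Of 18 matrix ligands of integrins 15 were measured. Of these, 12 passed the size rule downwards and none upwards, where 4.5% and 5.29% of all measured genes did. The median log2 fold of the list was -2.53 with shRNA 1 (0.01 over all genes) and -3.51 with shRNA 2 (0.04). These medians are the values of FBLN5 (38, 6 and 7 counts) and POSTN (89, 16 and 7), which reached 1 CPM in the control only and so were measured through the library in which they were high. TGFBI, a secreted RGD protein, had 80654 counts in the control library, 4253 with shRNA 1 and 1261 with shRNA 2. THBS1, the adhesive glycoprotein thrombospondin, had 25441, 1879 and 962. COL1A1, a chain of collagen I, had 5253, 328 and 162, and COL4A1, a chain of the basement membrane collagen IV, had 10359, 979 and 908. FN1, the fibronectin ligand of ITGA5 with ITGB1 and chosen here after its values were seen, had 908025, 303700 and 271305 counts and log2 folds of -1.82 and -1.93. No gene of the 5 ligand and partner lists passed edgeR's adjusted test. Unadjusted p was below 0.05 for 12 of the 15 matrix ligands, 1 of 6 cell-borne ligands, 2 of 5 latent TGF-beta partners, 5 of 23 adaptors and 7 of 18 basement membrane partners, against 10.2% of all measured genes. The 2 latent TGF-beta partners, TGFB2 and LRRC32, were measured through the control library, in which they were high, so their share is partly set by the filter.

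Of 10 ligands carried by cells 6 were measured, with medians of 0.08 and 0.27, and CDH1, the epithelial cadherin bound by ITGAE, was the 1 called by size (5.29% of all measured genes were higher), with 1877, 5201 and 4565 counts and log2 folds of 1.23 and 1.10. Of 7 partners of latent TGF-beta, the cargo of the ITGB6 and ITGB8 receptors, 5 were measured and 2, TGFB2 and LRRC32, were lower with both hairpins, against 4.5% of all measured genes. Both reached 1 CPM in the control only, so they were measured through the library in which they were high. TGFB2 had 161, 6 and 12 counts. LRRC32, which tethers latent TGF-beta to the cell surface, had 101 counts in the control library, 0 with shRNA 1 and 3 with shRNA 2. Against a floor of 3 counts per library it was at least 39.8-fold lower with shRNA 1, and its ratio with shRNA 2 was 0.0261 (0.0053 to 0.0786). The row of TGFB1 is broken in the deposited table and was not analysed here.

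Of 25 adhesion adaptors, which link integrin tails to actin, 23 were measured. With both hairpins 3 were lower and none was higher, against 4.5% and 5.29% of all measured genes, and the medians were -0.44 and -0.56. The kindlin FERMT1 had 4909, 1151 and 1258 counts (log2 folds -2.33 and -2.15) and the kindlin FERMT2 2048, 1055 and 934 (-1.20 and -1.32). TNS1, a tensin, had 1493, 597 and 336 counts (-1.56 and -2.33). Of 18 partners of laminins and of the basement membrane, all measured, 3 were lower and 4 higher with both hairpins, beside the same shares of 4.5% and 5.29%, with medians of -0.31 and -0.09. COL4A1 and COL4A2 (13739, 2146 and 850 counts) were among the lower ones. BCAM, a receptor for LAMA5, had 524, 3340 and 3976 counts (log2 folds 2.43 and 2.73), and NTN4, a netrin that binds laminin gamma chains, had 220, 980 and 1801 (1.90 and 2.84). BCAM and its ligand chain LAMA5 were both higher than in the control with each hairpin.

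**Figure D5:**
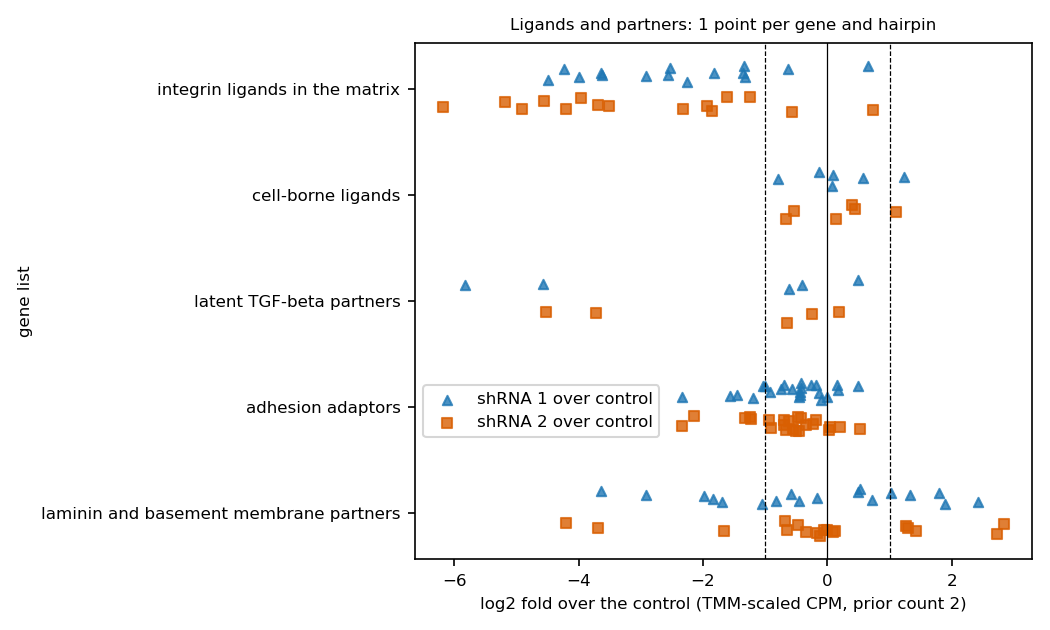
Log2 fold over the control (horizontal axis, CPM scaled by trimmed means, prior count 2) of each measured gene of the 5 ligand and partner lists, 1 point per gene and hairpin library. Most matrix ligands lie left of the line for 2-fold lower (medians -2.53 and -3.51), adaptors lie mostly between the lines, and the leftmost shRNA 1 point of the latent TGF-beta list is LRRC32, whose count of 0 makes its plotted fold depend on the prior count.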

How the data were processed

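The deposited table gives whole-number read counts and FPKM values per gene, made by the authors. The submitters' processing notes name TopHat2 2.0.9 and the build hg38. For the counting tool, strand setting, annotation release and filters, the entry is: not given in the sources used here. Between libraries the deposited FPKM values moved with the counts by 1 constant over 13333 genes, which was the ratio of the library totals. The gene lengths behind them were not checked. FPKM served only for levels between genes.

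The control library held 16424422 counts, shRNA 1 17670199 and shRNA 2 16216947. The row of TGFB1, broken over 4 lines, was left out. A gene was measured when its mean reached 1 CPM. Of the 29 measured integrin and laminin genes, 23 reached 1 CPM in every library, ITGA4, ITGA11, ITGAM and LAMA2 in 2, and ITGA9 and ITGB3 in 1. Counts were scaled with TMM in edgeR 4.0.16 (R 4.3.3), and log2 folds used a prior count of 2. The two-sided edgeR quasi-likelihood test was Benjamini-Hochberg adjusted over 15132 genes at 0.05. The fitting was tested on simulated data. Ratio intervals are exact conditional binomial 95% intervals. The labels name no separate cultures. The edgeR p-values set the fold against the difference between the hairpin libraries and a variability estimated over all genes, not against a spread between cultures.

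Alternatives were DESeq2 1.42.0, limma 3.58.1, other scalings, a prior count of 0.5, other filters and each hairpin left out. The genes and lists were chosen with earlier results of these data known. 1 gene named by the rule is not reported here and enters no count or list of the families. The other measured genes of the families were named, and from each partner list up to 4 genes with the largest smaller fold among those at least 2-fold away with both hairpins. The 36 genes had the positions of GENCODE release 29. Promoter windows come from RefSeq, and motif matches were found by letter.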

Additional observations from a re-analysis of the deposited data

How the results depend on the processing

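The count of measured genes at least 2-fold lower with both hairpins, 8, was 8 with DESeq2's size factors, 7 with library totals, 8 with a prior count of 0.5, 8 without a filter and 7 at a mean of at least 5 CPM. The count higher, 3, lay between 2 and 3 under the same settings. LAMA5 left the count with DESeq2's size factors and without a filter, and LAMB1 left it with library totals. With 1 hairpin left out, the rule needs only the other hairpin and no residual degree of freedom is left for a test. The count lower was then 9 without shRNA 1 and 13 without shRNA 2, and the count higher 7 and 4. The number passing the group test was 0 with edgeR and limma and 7 with DESeq2.

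Library totals moved the median log2 fold of all genes to 0.14 and 0.24, and the member medians from -0.50 and -0.64 to -0.36 and -0.44. The sign of LAMB2 with shRNA 1 was the 1 sign of a member and hairpin that changed under that scaling, and none changed with DESeq2's size factors. The integrin median over both hairpins, -0.58, was -0.41 with library totals and -0.72 at a mean of at least 5 CPM. The laminin median, -0.22, was 0.21 without shRNA 1 and -0.62 without shRNA 2. Over both hairpins, the mean fold of LAMA1 was -0.07 and became 0.10 with library totals.

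The design holds 1 control library and 1 library per hairpin, so no difference has a repeated control. The target RNA was not lower in the library labelled shRNA 2. Genes with fewer than 60 counts in every library, among them ITGA4, ITGA9 and LAMA2, have wide counting intervals. Reads of genes that overlap, on the same or on opposite strands, could not be separated. No protein or surface level was measured.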
